A study of Mus musculus with 8 samples.

Results

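The 9 genes described here are Procr and 8 other regulators of blood clotting or of plasminogen activation (Thbd, F3, Tfpi, Tfpi2, F2r, F2rl1, Plat and Plau), out of 55933 entries in a gene expression table of the mouse mammary gland. They were taken from the table by name, and were selected on the control and cKO values themselves, with earlier results of the same contrast known, so their group differences are given as a description, with no test. All 9 passed the filter on low values, a mean of at least 0.5 FPKM (fragments per kilobase of gene length, scaled by a single factor per library), which 15143 genes passed. Cells were isolated at pregnancy day 14.5 from the mammary glands of 8 mice, 4 control and 4 cKO, and each mouse gave 1 RNA-seq library. The cKO mice were K14-rtTA;teto-Cre;Bmpr1a fl/fl, in which doxycycline in the drinking water switches on Cre in cells that use the K14 promoter, so deletion of the BMP receptor Bmpr1a is aimed at the myoepithelial layer and not at luminal or stromal cells. The controls were littermates, which the sample labels call WT; which of the 3 alleles they carried and whether they received doxycycline are not given in the sources used here. All mice were C57BL/6, and the age in weeks of these mice is likewise not given. The glands were digested with collagenase and hyaluronidase and red blood cells were lysed, with no sorting, so each library mixes epithelial layers with the other cells that came through the digestion.

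Clotting starts when tissue factor, encoded by F3, meets its plasma protease and thrombin is formed, and it is held in check by Kunitz-type inhibitors and by the protein C pathway, in which thrombin bound to thrombomodulin (Thbd) activates protein C held by the endothelial protein C receptor (Procr). Thrombin and related proteases also signal to cells by cutting protease-activated receptors, and the plasminogen activators Plat and Plau start the breakdown of fibrin and matrix. In the mammary gland Procr is best known as a surface marker of a stem cell population in the basal layer, and Plau as a protease of tissue remodelling.

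Promoter windows were read to show the sequence next to the transcription starts of these genes. RefSeq on GRCm38.p6 gave windows of 300 bases, 250 before and 50 after a start, for 5 of the 9 genes (Procr, F3, F2r, Tfpi and Tfpi2), with 8 windows in all. Procr is shown because it had the largest log2 difference of the 9 between the groups, and F3 because its window holds the most matches. The Procr window is chr2:155750967-155751266 on the plus strand and the F3 window is chr3:121723287-121723586 on the plus strand, both written 5′ to 3′, with matches to 3 searched motifs in capitals.
Procr: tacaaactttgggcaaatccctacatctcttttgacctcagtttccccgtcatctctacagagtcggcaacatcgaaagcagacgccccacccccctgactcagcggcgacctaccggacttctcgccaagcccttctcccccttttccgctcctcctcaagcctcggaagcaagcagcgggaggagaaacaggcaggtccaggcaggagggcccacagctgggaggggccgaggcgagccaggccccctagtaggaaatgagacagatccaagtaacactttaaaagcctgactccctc
F3: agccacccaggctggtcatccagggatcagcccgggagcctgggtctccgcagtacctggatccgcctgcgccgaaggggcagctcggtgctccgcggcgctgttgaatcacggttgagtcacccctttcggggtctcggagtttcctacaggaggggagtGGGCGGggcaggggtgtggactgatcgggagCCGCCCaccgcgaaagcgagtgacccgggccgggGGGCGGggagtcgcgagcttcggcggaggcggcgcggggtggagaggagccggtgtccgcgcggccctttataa
The motifs, searched on both strands, were GGCGCC (a GC element that BMP-activated SMAD proteins can bind), CAGGTG (an E-box read by Snail-type repressors) and GGGCGG (the GC box of Sp1). GGCGCC was in 11.9% of all 32851 promoter windows, CAGGTG in 20.2% and GGGCGG in 35.7%. The Procr window held none of the 3, and the F3 window held 3 matches to GGGCGG, which do not overlap each other. None of the 8 windows held GGCGCC, which says only that these letters are not in these windows. CAGGTG had 1 match each in the Tfpi window from 84474125 and in the Tfpi2 windows from 3988809 and 3988887, which overlap. GGGCGG had 1 match in each Tfpi window and in the F2r window, and 2 in the Tfpi2 window from 3968326. GC content was 58.3% in the Procr window and 70.3% in the F3 window, against a median of 52.7% over all windows. The table of the study places the Procr gene from 155751117, upstream of the RefSeq start used for this window, and places the F3 gene from 121723537, at the RefSeq start.

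Between 16123108 and 19896988 reads lay on genes per library, and 100% of the FPKM values above 0 corresponded to a whole number of reads, so counting error is small for all but the lowest genes and precision is set by the 4 mice per group. RNA of the targeted gene Bmpr1a was not lower in the libraries labelled cKO, at 10.6, 11.7, 8.74 and 9.52 FPKM in control replicates 1 to 4 and 12, 12, 10.2 and 10.4 FPKM in cKO replicates 1 to 4 (limma adjusted p = 0.56). Bmpr1a RNA therefore gave no check of the labels, from which the directions below are taken. The milk protein genes Wap (24.3 to 62.8 FPKM in control and 128 to 323 FPKM in cKO) and Csn2 (1455 to 1856 and 2711 to 4523 FPKM) separated the libraries by label without overlap. Libraries numbered 1 and 2 deviated from their group means together across genes, as did those numbered 3 and 4 (r from 0.0797 to 0.178 between control and cKO libraries within these sets, and from -0.21 to -0.072 across them); the labels name no batch. Across the 15143 genes, 135 had an adjusted p under 0.05 in limma on log2(FPKM + 1), 89 higher and 46 lower in cKO (called below), and 0 to 78 were called with any 1 library left out. At an unadjusted p under 0.05 there were 1340 higher and 1140 lower genes, and 788 higher and 1656 lower when each library was scaled to the same sum. The p-values weigh the group difference against the spread between libraries, 1 per mouse, in a model with no term for the sets.

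Procr had the highest level of the 9 genes, with a mean of 153 FPKM over the 8 libraries, and ranked 284 among the genes tested. Its level was above that of Plau (95.7 FPKM) in 8 of 8 libraries, although the ranges of the 2 genes over all libraries overlapped. Plau was followed by F3 (46.8 FPKM) and Thbd (21.5 FPKM), and the ranges of these neighbours did not overlap. Thbd, F2rl1 (18.2 FPKM), Plat (14.2 FPKM), F2r (10.4 FPKM) and Tfpi2 (9.15 FPKM) formed a middle group in which the ranges of each gene and the next overlapped. Tfpi was the lowest, at 1.19 FPKM, with no overlap with Tfpi2.

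The control libraries held more Procr than every cKO library. Its level was 177, 191, 194 and 209 FPKM in control replicates 1 to 4 and 132, 109.8, 109 and 104 FPKM in cKO replicates 1 to 4. The highest cKO value thus lay below the lowest control value, and the cKO values fell close together apart from replicate 1. The means were 193 ± 12.9 FPKM (SD, n = 4) in control and 114 ± 12.3 FPKM (SD, n = 4) in cKO, a mean 40.9% lower. On the log2(FPKM + 1) scale the difference was -0.76 with a standard error of 0.09. It was -0.61 in replicates 1 and 2 and -0.91 in replicates 3 and 4, and between -0.83 and -0.72 with any 1 library left out. Between 3531 and 7962 reads per library lay on Procr. In bulk RNA of this kind, fewer cells of a type and less RNA per cell cannot be told apart.

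Thbd encodes thrombomodulin, the cell-surface protein that turns thrombin from a clotting enzyme into an activator of protein C. It was measured at 22.7, 27.1, 17.9 and 30.5 FPKM in control and at 23.4, 17.7, 14.9 and 18.1 FPKM in cKO. The groups overlapped: cKO replicate 1 lay among the controls, and control replicate 3 lay below cKO replicates 1 and 4. The mean difference on the log2 scale was -0.38 (SE 0.17). The level of Procr relative to Thbd ranged from 6.85 to 10.8 in control libraries and from 5.64 to 7.36 in cKO libraries.

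**Figure D1:**
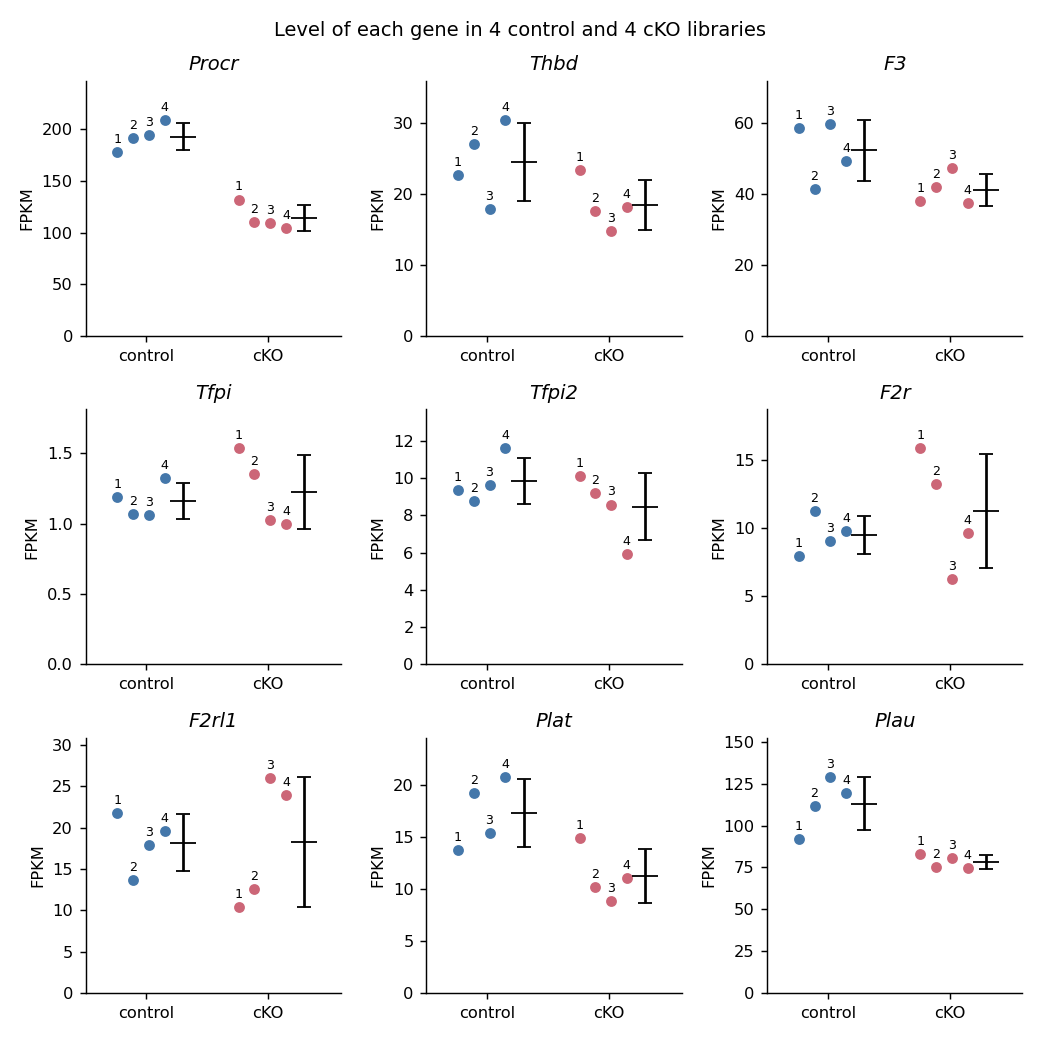
FPKM of the 9 genes in each library (points, numbered by replicate; blue control, red cKO), with the group mean and SD (bar, n = 4) beside them and a y axis from 0 in each panel. The groups are separate for Procr and Plau and overlap for the other 7 genes, and cKO replicates 1 and 2 lie apart from 3 and 4 for F2r and F2rl1.

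Tissue factor and its inhibitors overlapped between the groups. F3 encodes the receptor that starts clotting, and its level was 58.8, 41.6, 59.8 and 49.4 FPKM in control and 38.0, 42.0, 47.4 and 37.5 FPKM in cKO. Control replicate 2 was as low as the cKO libraries, so the groups overlapped. The mean of cKO was 21.3% below that of control, and the log2 difference was -0.33 (SE 0.13), between -0.43 and -0.26 with any 1 library left out. Tfpi, which encodes the main inhibitor of the tissue factor complex, was measured at 1.06 to 1.33 FPKM in control and 0.995 to 1.54 FPKM in cKO, from 89 to 162 reads per library. Tfpi2 encodes a related inhibitor that is deposited in the matrix and acts on plasmin. It stood at 9.35, 8.76, 9.63 and 11.6 FPKM in control and 10.1, 9.20, 8.58 and 5.95 FPKM in cKO, where only cKO replicate 4 was clearly low. The log2 differences were 0.04 (SE 0.10) for Tfpi and -0.21 (SE 0.15) for Tfpi2, and that of Tfpi changed sign with a library left out (from -0.03 to 0.09). The difference of Tfpi2 was -0.07 without cKO replicate 4, -0.14 without control replicate 4 and -0.30 without cKO replicate 1. By set, Tfpi differed by 0.20 in replicates 1 and 2 and by -0.12 in replicates 3 and 4. The same values were 0.08 and -0.50 for Tfpi2, and -0.30 and -0.36 for F3.

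The receptors F2r (PAR1, the main thrombin receptor) and F2rl1 (PAR2, which trypsin-like proteases cut) did not separate the groups, but they split the cKO libraries in opposite ways. F2r was measured at 7.96, 11.2, 9.04 and 9.77 FPKM in control and at 15.8, 13.2, 6.27 and 9.65 FPKM in cKO. F2rl1 was measured at 21.7, 13.6, 17.8 and 19.6 FPKM in control and at 10.4, 12.6, 26.0 and 23.9 FPKM in cKO. Thus cKO replicates 1 and 2 had the 2 highest F2r levels and the 2 lowest F2rl1 levels of all 8 libraries, and cKO replicates 3 and 4 had the 2 highest F2rl1 levels. The log2 differences were 0.16 (SE 0.24) for F2r and -0.07 (SE 0.28) for F2rl1, and both changed sign with a library left out (from -0.01 to 0.39 for F2r and from -0.27 to 0.14 for F2rl1). By set, F2r differed by 0.56 in replicates 1 and 2 and by -0.24 in replicates 3 and 4, while F2rl1 differed by -0.55 and 0.40. On deviations from the group means, F2r and F2rl1 were negatively related (Pearson r = -0.93, exact permutation p = 0.0104, adjusted 0.199; Spearman rho = -0.95, exact permutation p = 0.0139, adjusted 0.208; n = 8 libraries, 36 pairs of genes examined). Without the 2 libraries farthest from the median r was -0.91, and none of the 36 pairs passed the adjustment. The permutations did not keep these sets apart. Within a set, the libraries of 1 group differed in opposite directions for F2r and F2rl1 in 3 of 4 cases, and control replicates 3 and 4 differed in the same direction. The genes lie on the minus strand of chromosome 13, F2rl1 from 95511732 to 95525227 and F2r from 95601803 to 95618487 on GRCm38.

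**Figure D2:**
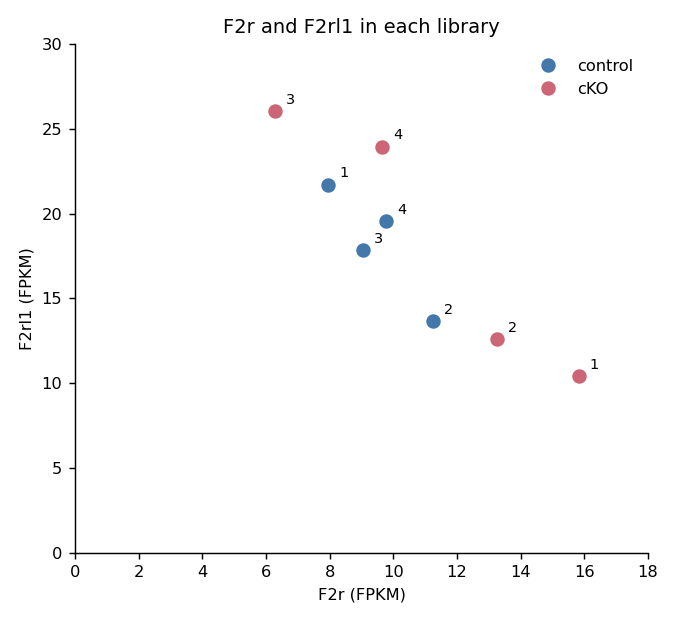
FPKM of F2rl1 (y axis) against FPKM of F2r (x axis) in each of the 8 libraries, numbered by replicate, with control in blue and cKO in red. The cKO libraries occupy both ends of a falling band, with replicate 1 at 15.8 and 10.4 FPKM and replicate 3 at 6.27 and 26.0 FPKM, and the controls lie between.

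Both plasminogen activators were lower on average in cKO. Plau encodes urokinase, the activator that works at the cell surface through its receptor, and was measured at 92.1, 112, 129 and 119.6 FPKM in control and at 83.1, 75.0, 80.4 and 74.6 FPKM in cKO. The highest cKO library stayed under the lowest control, and the cKO libraries differed little among themselves. The means were 113 ± 15.7 FPKM (SD, n = 4) and 78.3 ± 4.15 FPKM (SD, n = 4), a mean 30.8% lower, with a log2 difference of -0.52 (SE 0.10). Plat encodes the tissue-type activator, which is most active on fibrin. Its level was 13.7, 19.2, 15.3 and 20.8 FPKM in control and 14.9, 10.1, 8.82 and 11 FPKM in cKO. The groups overlapped only through cKO replicate 1, which was above control replicate 1. The mean was 35.1% lower and the log2 difference was -0.59 (SE 0.17), from -0.72 to -0.49 with any 1 library left out. The ratio of Plau to Plat ranged from 5.76 to 8.42 in control and from 5.58 to 9.12 in cKO.

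Among the 9 genes, 2 had cKO values that all lay below the controls, beside 4.6% of the 15143 genes tested, and 7 had a lower mean log2 value in cKO, beside 49.8% of them. The median log2 difference of the 9 was -0.33, against 0.0007 over all genes tested. That overall median and the share of 49.8% are largely set by how the values were scaled between libraries. With each library scaled to the same sum, the overall median was -0.05. Since the genes were chosen with this contrast in view, nothing is read from these counts.

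The other genes of clotting and plasminogen activation were examined as 6 lists of 44 genes in all, of which 21 passed the filter. Of these 21, 1 had an adjusted p under 0.05, beside 0.892% of all genes, and 5 had an unadjusted p under 0.05, beside 16.4%. The groups did not overlap for 4 of the 21 (Vwf and Serpine2 lower, St14 and Spint1 higher in cKO), beside 10.7% of all genes. Of the 21, 11 were lower and 10 higher on average, with a median log2 difference of -0.03.

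Vwf, the carrier of factor VIII and platelet tether made by endothelial cells and platelets, was the gene that passed. It was measured at 5.32, 5.14, 5.46 and 5.38 FPKM in control and at 3.92, 3.7, 3.54 and 3.25 FPKM in cKO. The controls lay within a narrow band above all cKO libraries. The log2 difference was -0.46 (SE 0.07, limma adjusted p = 0.0268). The call was lost without any of control replicates 1 to 4 or cKO replicates 2, 3 or 4, with no filter on low values (adjusted p = 0.0633) and with a replicate block (adjusted p = 0.0614), and it held without cKO replicate 1. Over all alternatives the adjusted p ranged from 0.0094 to 0.0885 and the log2 difference from -0.57 to -0.42. Endothelial markers had a lower mean log2(FPKM + 1) in cKO for 10 of 10 genes, by as little as 0.003 for Esam, whose mean FPKM was 12.1 in both groups. None of them had an adjusted p under 0.05, 3 had an unadjusted p under 0.05 and limma-voom on recovered reads called 1 (Plvap), and their summed level was 153 to 179 FPKM in control and 115 to 157 FPKM in cKO; the part of this in the values of Vwf, Procr and Thbd was not tested.

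**Figure D3:**
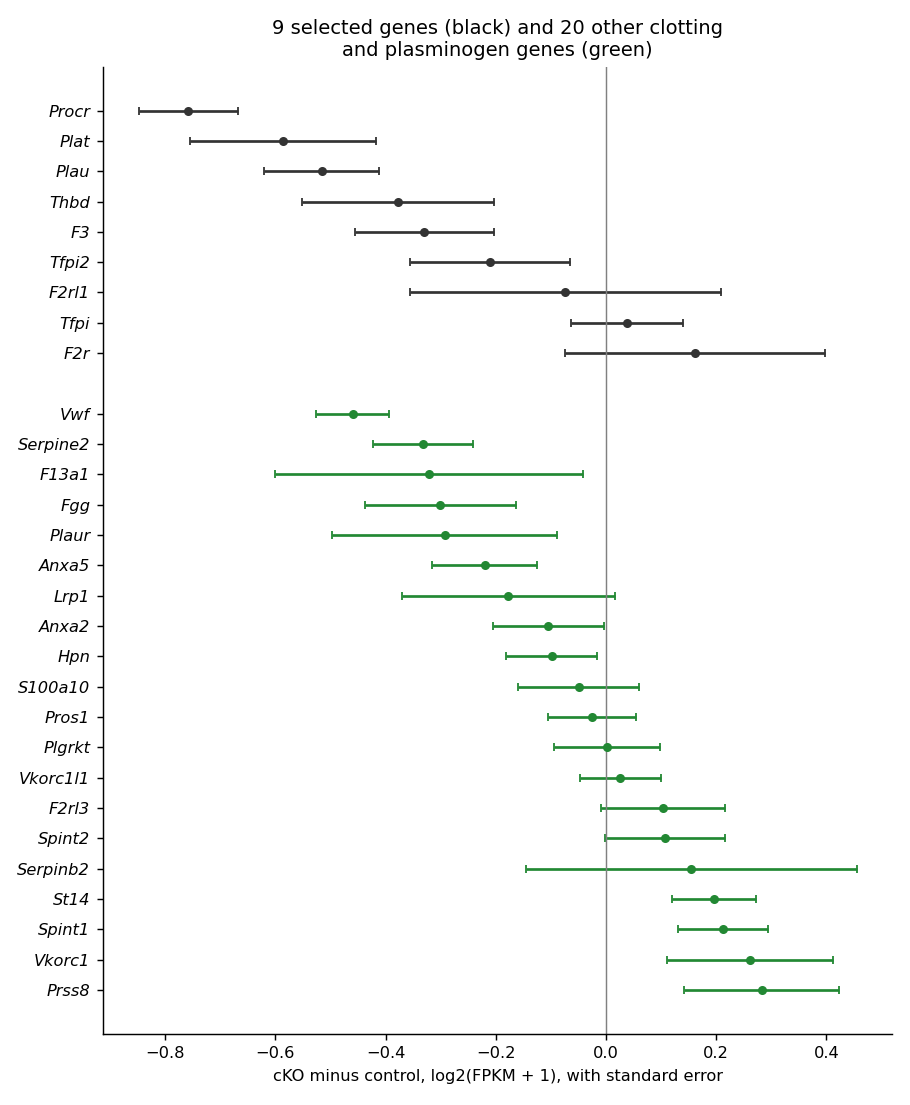
Difference between cKO and control on the log2(FPKM + 1) scale with its standard error, for the 9 selected genes (black) and 20 of the 21 other genes of clotting and plasminogen activation that were tested (green), each ordered by size. Procr lies farthest from 0 at -0.76, and Vwf at -0.46 is the green gene with an adjusted p under 0.05.

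The rest of the clotting cascade was hardly present in this preparation. Of 16 clotting factors and fibrinogen chains 3 passed the filter (Vwf, F13a1 and Fgg), all lower on average in cKO, with Vwf called and a median log2 difference of -0.32. The fibrinogen chain Fgg was at 4.69 to 6.79 FPKM in control and 3.59 to 5.39 FPKM in cKO (log2 difference -0.30, limma adjusted p = 0.318). Prothrombin, the precursor of the protease that cuts F2r and binds Thbd, was at 0.0338 to 0.0792 FPKM over the 8 libraries (F2). Protein C, the ligand of Procr, was at 0.109 to 0.396 FPKM (Proc). Kng1 and Serpina5 had no read in any library. Of 7 anticoagulants 2 passed, neither called: protein S (Pros1), the cofactor of activated protein C, at 19.1 to 21.5 FPKM in control and 17.5 to 22.0 FPKM in cKO, and the phospholipid-binding annexin Anxa5 at 191 to 226 and 157 to 199 FPKM (log2 difference -0.22, limma adjusted p = 0.297). Their median log2 difference was -0.12, and Anxa5 had an unadjusted p under 0.05. Of the other protease-activated receptors, F2rl3 (PAR4) was at 0.269 to 0.614 FPKM in control and 0.493 to 0.837 FPKM in cKO (log2 difference 0.10, limma adjusted p = 0.703; 0.02 without control replicate 3, 0.04 without cKO replicate 4, and 0.26 to 0.30 with a pseudocount of 0.1 or limma-voom), and F2rl2 (PAR3) was under the filter at 0 to 0.0727 FPKM.

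The plasminogen system was present at the level of receptors and inhibitors but not of plasminogen itself, whose gene Plg was at 0 to 0.0509 FPKM. Of 11 genes 8 were tested and none was called, 5 lower and 3 higher on average, with a median log2 difference of -0.08 and 1 at an unadjusted p under 0.05 (Serpine2). The highest were S100a10 and Anxa2, which form a plasminogen-binding complex at the cell surface, at 337 to 460 FPKM and 169 to 242 FPKM over the 8 libraries. Serpine2, which encodes the inhibitor protease nexin, was at 2.39 to 3.18 FPKM in control and 1.81 to 2.30 FPKM in cKO without overlap (log2 difference -0.33, SE 0.09, limma adjusted p = 0.127). Of the 5 membrane serine proteases and their inhibitors 4 were higher on average in cKO and none was called, with a median log2 difference of 0.20 and 2 at an unadjusted p under 0.05 (St14 and Spint1). Limma-voom called 1 gene of the 21, Vwf. Matriptase (St14), a membrane protease that can activate PAR2, was at 78.7 to 86.9 FPKM in control and 88.9 to 107 FPKM in cKO (log2 difference 0.20, SE 0.08, limma adjusted p = 0.246). Its inhibitor HAI-1 (Spint1) was at 62.6 to 74.6 FPKM in control and 74.8 to 89.4 FPKM in cKO (log2 difference 0.21, SE 0.08, limma adjusted p = 0.243). HAI-2 (Spint2) was at 112 to 143 and 117 to 149 FPKM, with overlap. Of 3 genes of gamma-carboxylation, the vitamin K-dependent step that clotting factors need, 2 passed the filter and neither was called or at an unadjusted p under 0.05 (median log2 difference 0.14): Vkorc1 at 2.06 to 3.78 FPKM and Vkorc1l1 at 7.77 to 9.68 FPKM over the 8 libraries.

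Markers of 8 cell types were read beside these genes. The labelled tissue held both epithelial layers, with Acta2 and Krt14 the highest myoepithelial markers (653 to 1062 FPKM for Acta2 over the 8 libraries) and Csn2 and Krt8 the highest luminal ones. The 10 myoepithelial markers summed to 1985 to 2704 FPKM in control and 1810.0 to 2506 FPKM in cKO, with 6 higher, 4 lower and none called. Of these, 3 had an unadjusted p under 0.05: Krt14 (log2 difference -0.39) and Trp63 (-0.42) lower and Oxtr (0.85) higher in cKO, and limma-voom called Oxtr. The 10 luminal markers summed to 6039 to 7586 and 7250 to 10534 FPKM, with 6 higher, 4 lower and a median log2 difference of 0.05. Of these, 3 had an unadjusted p under 0.05, all higher. The milk protein genes Csn2 and Wap were called, with Elf5 also called by limma-voom. The lower ones were Epcam (log2 difference -0.18), Esr1 (-0.12), Krt19 (-0.11) and Krt8 (-0.003), none called. Fibroblast markers (highest Col3a1 and Col1a1) had a lower mean log2 value for 6 of 6 genes, none called and none at an unadjusted p under 0.05, with sums of 441 to 920 FPKM in control and 299 to 713 FPKM in cKO. Macrophage markers (highest C1qa and C1qb) were lower for 7 of 7, none called and 4 at an unadjusted p under 0.05 (148 to 199 and 98.4 to 152 FPKM). Pericyte markers were lower for 4 of 4 tested (highest Rgs5 and Pdgfrb), none called and none at an unadjusted p under 0.05 (32.8 to 47.6 and 21.3 to 43.1 FPKM), and Cspg4 was under the filter. Endothelial markers were led by Plvap and Cdh5. Of 6 platelet markers 2 were tested (Pf4 and Itga2b), both lower, neither called nor at an unadjusted p under 0.05 (10.1 to 14.8 and 8.44 to 12.5 FPKM), while Ppbp, Gp1ba, Gp9 and Gp6 were under the filter. Of 5 adipocyte markers Cidec and Adipoq were tested, Cidec was called higher, the sums were 0.644 to 1.40 and 2 to 6.40 FPKM, and Plin1, Lep and Retn were under the filter. Limma-voom called none of the fibroblast, macrophage, pericyte and platelet markers. The part of these cell types in the differences of the 9 genes was not tested.

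Within the groups, Thbd and Plat went with the fibroblast and pericyte markers and F3 went against them. Each of the 9 genes was compared with the mean log2 value of each of the 8 marker lists on deviations from the group means, 72 relations in all over 8 libraries. Thbd and the fibroblast score had r = 0.95 (exact permutation p = 0.0035, adjusted 0.188) and rho = 0.98 (exact permutation p = 0.0035, adjusted 0.25), with r = 0.94 without the 2 farthest libraries. For Plat the values were r = 0.96 (exact permutation p = 0.0104, adjusted 0.25) and rho = 0.93 (exact permutation p = 0.0174, adjusted 0.35), with r = 0.93 without the 2 farthest. For F3 they were r = -0.85 (exact permutation p = 0.0365, adjusted 0.328) and rho = -0.81 (exact permutation p = 0.0451, adjusted 0.542), with r = -0.84 without the 2 farthest. For F2r they were r = 0.76 (exact permutation p = 0.0365, adjusted 0.328) and rho = 0.74 (exact permutation p = 0.0694, adjusted 0.625), with r = 0.45 without the 2 farthest, so the relation of F2r rests on those libraries. The pericyte score gave r = 0.84 for Thbd, 0.87 for Plat, 0.87 for F2r and -0.82 for F3 (exact permutation p = 0.0174, 0.0226, 0.026 and 0.0052, adjusted 0.312, 0.312, 0.312 and 0.188). For these, rho was 0.95, 0.90, 0.76 and -0.88 (exact permutation p = 0.0104, 0.0243, 0.0556 and 0.0208, adjusted 0.35, 0.35, 0.571 and 0.35), and r without the 2 farthest libraries was 0.78, 0.71, 0.48 and -0.97, so that of F2r again rests on those left out. These 8 relations with the fibroblast and pericyte scores were those with an unadjusted p under 0.05 for r, and none of the 72 passed the adjustment. The fibroblast and pericyte scores also moved together within cKO. Both were highest in cKO replicate 1 (6.30 and 2.79) and lowest in cKO replicate 3 (5.10 and 2.04). In control both were lowest in replicate 3 (5.51 and 2.38), so the pericyte relations partly repeat the fibroblast ones. For Procr and the fibroblast score r was 0.66 and rho 0.55 (exact permutation p = 0.144 and 0.215, adjusted 0.879 and 1), and r without the 2 farthest libraries was 0.50. For Procr and the endothelial score r was 0.54 and rho 0.31 (exact permutation p = 0.345 and 0.559, adjusted 0.879 and 1), and r was -0.27 without the 2 farthest libraries, so this value rests on them.

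**Figure D4:**
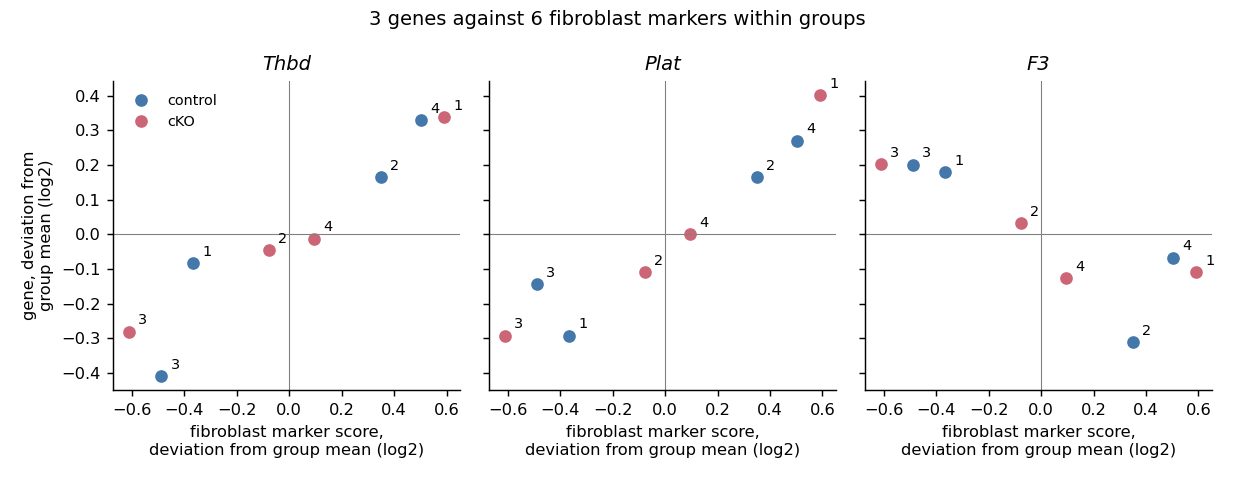
Deviation of Thbd, Plat and F3 from the group mean of log2(FPKM + 1) (y axis) against the deviation of the mean log2 value of 6 fibroblast markers (x axis), 1 point per library, numbered by replicate (blue control, red cKO). Thbd and Plat rise along the x axis (r = 0.95 and 0.96) and F3 falls (r = -0.85), with control and cKO libraries mixed along each band.

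The genes with the pattern most like that of Procr were sought among 4722 others with a mean of at least 10 FPKM. Over the 8 libraries the highest Pearson correlations were those of Cpe (carboxypeptidase E, r = 0.99), Fbln2 (the matrix protein fibulin 2, r = 0.98), Rcn1 (a calcium-binding protein of the endoplasmic reticulum, r = 0.98), Sh2b3 (the signalling adaptor LNK, r = 0.98) and Col16a1 (a collagen chain, r = 0.97). These points share the difference between the groups, which all 5 genes have: none of them overlapped between control and cKO, from 13.4 against 8.52 FPKM on average for Cpe to 49.98 against 29.9 FPKM for Col16a1. On deviations from the group means the highest were Adss (an enzyme of adenine nucleotide synthesis, r = 0.97), Fbln2 (r = 0.97), Htra1 (a secreted serine protease, r = 0.96), the alpha-globin Hba-a1 (r = 0.96) and Il6 (a cytokine, r = 0.93). Fbln2 was in both groups of genes. Reads of Hba-a1 may be shared with the near-identical copy of this gene, so its value is uncertain. The points share libraries, and no test was made of these values.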

How the data were processed

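RNA of mammary cells, taken at pregnancy day 14.5 from 4 mice of each group, was sequenced by the authors from NEBNext Ultra libraries. Per the study's methods, reads were checked with FastQC and mapped to GRCm38 with Hisat2, and FPKM were calculated and deposited by the authors in a table of 55933 genes. The submitters' processing notes name StringTie 1.3.3b, featureCounts 1.5.0-p3 and the build mm9, but 99.7% of the 55480 gene IDs found in GENCODE vM21 have its GRCm38 coordinates. Strand-specific counting is not stated; no exon of the 9 genes overlaps another gene in GENCODE. FPKM multiplied by gene length and by a single factor per library gave whole reads for 100% of values above 0 (tolerance 0.01 reads), 16123108 to 19896988 per library. Up to a common constant, these factors equalled median-of-ratios size factors in every library. Such factors level the typical gene between libraries, and not the total reads.

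Members and gene lists were chosen with earlier results of these data known. The 15143 genes averaging 0.5 FPKM or more were fitted on log2(FPKM + 1) in limma 3.58.1 (R 4.3.3), using moderated variances with a trend, and p-values were adjusted by the method of Benjamini and Hochberg. A pseudocount of 1 understates the change of low genes. DESeq2, which the study used, was not run here. On simulated reads (5 draws, 15100 to 15148 genes tested), 81.1% of genes changed by 2-fold and 96.9% of those changed by 3-fold were recovered, and 5.94% of calls were unchanged genes. The simulation gave every gene the same dispersion, drew libraries independently and changed 200 genes per draw. The real libraries deviated in sets and genes differed in spread, so these rates may not hold for them. Named genes are the 9, pathway genes with an unadjusted p under 0.05 or among the 2 highest of their list, Bmpr1a, the 5 genes most correlated with Procr on each measure, and markers under 0.5 FPKM or among the 2 highest of their list; other genes were named after their values were seen. Relations were tested by all 576 permutations within groups, two-sided, for which the smallest p is 0.00174. Python 3.11.15 and pandas 2.3.3 were used for the other steps. Alternatives were a pseudocount of 0.1, scaling to the same sum, other filters, blocks, limma-voom on recovered reads and each library left out. The values of 1 tested pathway gene are not reported here.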

Additional observations from a re-analysis of the deposited data

Results flagged for a closer look

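In 46 groups of 4 libraries (the 9 genes, the 13 tested pathway genes that the rule for named genes gives, and Bmpr1a), the highest or lowest library was examined for a gap to the others. Such a gap appears by chance in about 1 of 20 groups, or 2.3 of 46, and 4 were found, none of them in the 9 genes. Anxa5 was at 226 FPKM in control replicate 4, against 191 to 193 FPKM in the other controls. Anxa2 was at 242 FPKM in the same library, against 196 to 204 FPKM in the other controls. F2rl3 was at 0.269 FPKM in control replicate 3, against 0.579 to 0.614 FPKM in the others. Spint1 was at 89.4 FPKM in cKO replicate 4, against 74.8 to 76.8 FPKM in the other cKO libraries.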

How the results depend on the processing

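With 4 mice per group, the number of genes with an adjusted p under 0.05 depended on the analysis. It was 135 as reported, 10 with no filter on low values (31373 genes tested), 50 with a replicate block, 442 with a block of 2 sets (replicates 1 and 2, replicates 3 and 4), 252 with limma-voom on recovered reads, 680 with limma-voom and a replicate block, and 0 to 78 with a library left out. Of the pathway genes 1 was called as reported, none with no filter, none with a replicate block, 2 with limma-voom and a replicate block (Vwf and Plaur), and 0 to 1 with a library left out. Those at an unadjusted p under 0.05 were 5 as reported, 10 with a replicate block, 8 with the block of 2 sets, 9 with limma-voom and a replicate block, and 2 to 7 with a library left out. The correlations of same-numbered libraries were 0.137, 0.11, 0.116 and 0.0797, not all over the 0.1 required, and libraries did not all correlate best with their own number, so the numbers were not taken as pairs; the shared deviation was that of the 2 sets given above. Directions turned for Pros1 without cKO replicate 3 (0.037; -0.068 to 0.037 with any library left out), S100a10 without control replicate 4 (0.029) or cKO replicate 1 (0.0037; -0.098 to 0.029), and Vkorc1l1 with the same sum per library (-0.0302) or without control replicate 4 (-0.026; -0.026 to 0.069), all on the log2 scale; the cause was not tested. Of the 9 genes, F2r, F2rl1 and Tfpi changed sign with a library left out, as given above. Depth limits Tfpi most, with 89 reads in its lowest library.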

Other observations

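Ratios between genes within a library do not depend on scaling between libraries. The urokinase receptor gene Plaur was at 1.19, 0.807, 1.2 and 1.12 times the level of Plau in control and 1.07, 1.0, 1.64 and 1.37 times in cKO, with overlap. The ratio of F3 to its inhibitor Tfpi was 37.3 to 56.4 in control and 24.7 to 46.2 in cKO, with overlap. These ratios were chosen with the values of Plau and F3 known, so they are a description and were not tested.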
